A study of Mus musculus with 7 samples.

Results

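Transcript levels of 10 circadian clock genes were examined in RNA-sequencing of marrow-flushed femora from female mice aged 12 weeks. The genes were taken by symbol from the 27179 genes of the deposited count table, and they were Arntl (also called Bmal1), Clock, Per1, Per2, Per3, Cry1, Dbp, Tef, Nr1d1 and Nr1d2. All 10 were found and all 10 passed the filter on low counts, as 10 of the 15098 genes tested. The 3 libraries labelled Dmp1Cre.EfnB2f/f (hereafter f/f-labelled) came from mice in which Cre recombinase, driven by the Dmp1 promoter in late osteoblasts and osteocytes, deletes the floxed Efnb2 gene. The 4 control libraries came from Dmp1Cre mice, which carried the same Cre transgene with wild-type Efnb2. Both genotypes were on the C57BL/6 background, and controls were cousins or littermates. The methods state that mice were fasted before collection. The labels give no time of day for the collection of any library.

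The circadian clock is a feedback loop of transcription that runs in nearly every cell. ARNTL pairs with CLOCK, or with its relative NPAS2, and the pair binds E-box elements to turn on the Per and Cry genes, whose proteins return to the nucleus and block that pair. A further loop is set by REV-ERB alpha and beta (encoded by Nr1d1 and Nr1d2), which repress Arntl and Npas2 through the elements that the ROR receptors use to activate them, while DBP and TEF act on D-box elements of output genes and of the Per genes. In tissues with a running clock, Arntl and Npas2 therefore peak at the opposite time of day from Dbp, Per2 and Per3, and osteoblasts, osteocytes, muscle fibres and marrow cells all hold such clocks.

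Library totals ranged from 17245556 to 22075778 counts, and the counts of the clock genes from 87 to 3140 per library. Efnb2, the targeted gene, was present in every library, at 17.9, 13.1 and 11.8 CPM in f/f-labelled libraries 1 to 3 and at 8.49, 7.93, 6.44 and 6.36 CPM in controls 1 to 4, where CPM is the read count scaled to a common library size after TMM normalization. All f/f-labelled libraries were above all controls, so the loss that the label names was not seen in these counts. The log2 difference was 0.96 (SE 0.21, edgeR adjusted p = 0.511, DESeq2 adjusted p = 0.0331, limma adjusted p = 0.0162 without the block for the occasion of collection). The libraries are therefore named here by their labels, and each direction below is relative to them. The counts are for the gene as a whole and do not separate the deleted part. With PCR of the targeted region, the paper found Efnb2 lost in sorted osteocytes of younger mice and retained in other cells. Bulk bone holds both, so these counts cannot decide whether the deletion took place. On the first principal component of all genes, which held 53.9% of the variance, controls 1 and 4 scored 43.9 and 68.8 while the other 5 libraries lay between -41.4 and -1.76. The 8 osteocyte and osteoblast markers were all detected, with a summed level of 8398 to 13942 CPM in the f/f-labelled libraries and 8234 to 40751 CPM in the controls. The 10 skeletal muscle markers summed to 45048 to 62598 CPM and 17480 to 49026 CPM in the same order, and the 7 erythroid markers to 2930 to 4552 CPM and 5378 to 11371 CPM. Neutrophil marker sums also separated the groups (11867 to 14889 CPM and 16970 to 19825 CPM), as did the endothelial sums (269 to 324 CPM and 214 to 265 CPM). A log2 fold change above 0, found in 51.3% of all genes, was found in 10 of 10 muscle, 0 of 7 erythroid, 0 of 7 neutrophil and 4 of 4 endothelial markers. It was found in 4 of 8 osteocyte and osteoblast, 4 of 6 B lineage, 2 of 4 osteoclast and 3 of 4 adipocyte markers. An unadjusted p under 0.05 with edgeR, found in 9.66% of all genes, was found in 3, 4, 1 and 2 of the first 4 lists. In the other lists it was found in 0, 1, 0 and 0. The erythroid list includes Klf1 and Tspo2, which the paper reports as lower in these data, so its count was in part set by that choice. In all lists, 0 markers were at 0 in all libraries. Their part in the genotype differences of the clock genes was not tested. In bulk bone, fewer cells of a type and less RNA per cell cannot be told apart.

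Promoters of the clock genes were searched for elements through which the loop runs. Those of 5 are shown here, for genes that lay on opposite sides of the division between libraries described below. RefSeq windows of 300 bases on GRCm38.p6 (250 before the start site and 50 after it) were found for 9 of the 10 genes, all but Per2. There were 14 windows in all, since some genes had more than 1. The windows shown are chr7:113207261-113207560 on the plus strand for Arntl, chr11:69098699-69098998 on the plus strand for Per1, chr4:151044616-151044915 on the minus strand for Per3, chr7:45704997-45705296 on the plus strand for Dbp, and chr15:81811164-81811463 on the plus strand for Tef. Capitals mark every match to a searched motif on either strand.
Arntl: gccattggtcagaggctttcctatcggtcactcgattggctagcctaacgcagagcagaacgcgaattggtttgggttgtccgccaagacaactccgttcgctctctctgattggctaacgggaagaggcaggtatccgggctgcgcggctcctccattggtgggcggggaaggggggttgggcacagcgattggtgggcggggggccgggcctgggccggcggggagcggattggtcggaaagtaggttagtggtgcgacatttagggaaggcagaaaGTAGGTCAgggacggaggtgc
Per1: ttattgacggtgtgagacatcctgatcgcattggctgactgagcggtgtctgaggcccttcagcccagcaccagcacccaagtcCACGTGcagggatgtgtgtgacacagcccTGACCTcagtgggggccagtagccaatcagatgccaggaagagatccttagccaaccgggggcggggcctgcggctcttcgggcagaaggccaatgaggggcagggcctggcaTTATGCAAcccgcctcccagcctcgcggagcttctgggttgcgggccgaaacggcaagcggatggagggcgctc
Per3: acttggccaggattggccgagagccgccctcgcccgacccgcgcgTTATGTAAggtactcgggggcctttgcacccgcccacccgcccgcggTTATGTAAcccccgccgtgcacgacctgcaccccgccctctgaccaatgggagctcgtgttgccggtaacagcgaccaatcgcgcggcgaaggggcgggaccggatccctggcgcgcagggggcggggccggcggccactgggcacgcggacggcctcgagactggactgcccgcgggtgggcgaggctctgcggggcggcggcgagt
Dbp: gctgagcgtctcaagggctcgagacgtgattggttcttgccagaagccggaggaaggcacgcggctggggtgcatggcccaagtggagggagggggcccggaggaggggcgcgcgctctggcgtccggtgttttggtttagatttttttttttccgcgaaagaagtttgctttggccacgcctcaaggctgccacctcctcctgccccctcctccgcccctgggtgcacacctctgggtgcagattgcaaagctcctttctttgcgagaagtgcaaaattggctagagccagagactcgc
Tef: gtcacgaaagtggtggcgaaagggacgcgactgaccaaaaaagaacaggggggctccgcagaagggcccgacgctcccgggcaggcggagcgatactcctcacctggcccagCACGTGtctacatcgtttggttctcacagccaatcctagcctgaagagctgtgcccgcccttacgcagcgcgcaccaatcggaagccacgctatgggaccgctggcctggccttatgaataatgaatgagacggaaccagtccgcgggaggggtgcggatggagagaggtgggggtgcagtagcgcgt
The Arntl window shown held the ROR and REV-ERB element in its longer form, GTAGGTCA, 30 bases after the start site. That string was present in 0.621% of 32851 windows of all genes. The other window of Arntl and that of Per1, not shown, held 0 matches. Per3 had the D-box TTATGTAA at 205 and 158 bases before its start site, and 0.938% of all windows held that D-box. Per1 had an E-box, CACGTG, 166 bases before the start and the D-box variant TTATGCAA 24 bases before it, as well as the shorter core AGGTCA in reverse orientation (TGACCT). Tef had the E-box in each of its windows, as did Cry1 in its one window, and the E-box was in 7.15% of all windows. The Dbp window held 0 of the 6 motifs, which says only that these letters are not in these 300 bases. The variant CACGTT was found in Cry1 and Nr1d1, and AGGTCA also in Clock and Nr1d2. Of all windows, 4.68% held CACGTT and 16.3% held AGGTCA. These matches describe the sequence and were not tied to the measured levels by any test.

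Length-corrected levels placed Per1 highest, with a median of 26.8 CPM per kilobase over the 7 libraries, followed by Tef (18.8), Nr1d1 (13.6), Nr1d2 (9.59), Arntl (8.22), Per3 (8.10), Cry1 (6.96), Clock (6.91), Dbp (6.04) and Per2 (4.80). No gene was above its neighbour in this order in all 7 libraries, and Tef, above Nr1d1 in 6 of 7, came closest. Dbp crossed most of the order, since its length-corrected level was 2.88 CPM per kilobase in f/f-labelled library 1 and 31.9 in f/f-labelled library 3. Cry1 stayed within 6.60 to 8.68.

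**Figure D1:**
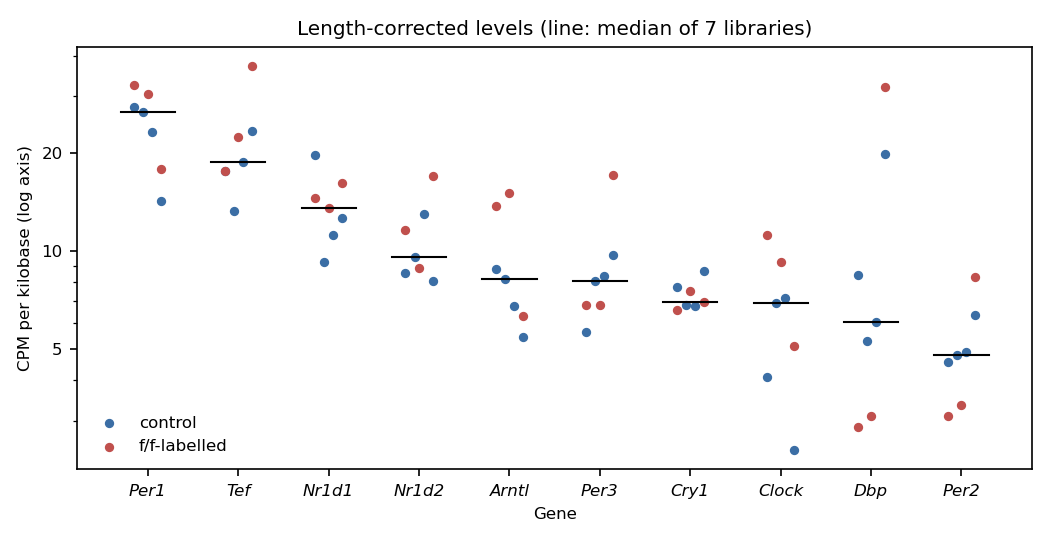
Level per kilobase of gene length (CPM per kilobase, log axis) of each clock gene; points are the 7 libraries coloured by label and lines the medians. Per1 had the highest median (26.8) and Per2 the lowest (4.80), and Dbp had the widest spread, from 2.88 to 31.9.

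Arntl (Entrez 11865, chromosome 7 of GRCm38, 113178471 to 113314126) encodes the obligate partner of the activating pair. Its level was 40.2, 43.9 and 18.3 CPM in f/f-labelled libraries 1 to 3 and 25.7, 23.9, 19.7 and 15.8 CPM in controls 1 to 4. F/f-labelled libraries 1 and 2 were above every control, whereas f/f-labelled library 3 lay below controls 1, 2 and 3, so the groups overlapped. The means were 34.1 ± 13.8 CPM (SD, n = 3) and 21.3 ± 4.42 CPM (SD, n = 4), and the genotype difference was 0.68 on the log2 scale (SE 0.31), with a Benjamini-Hochberg adjusted p of 0.511 in edgeR's quasi-likelihood fit of all genes tested. Its unadjusted p of 0.0544 was the lowest of the 10 genes. Without f/f-labelled library 3 the log2 fold change was 0.98 (edgeR adjusted p = 0.534).

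Clock (chromosome 5, 76209868 to 76305603), which encodes the other partner, had 83.9, 69.3 and 38.2 CPM in the f/f-labelled libraries and 30.6, 51.7, 53.7 and 18.3 CPM in the controls. The lowest level was that of control 4 and the next lowest that of control 1, the libraries apart on the first principal component, and with both left out the log2 fold change of Clock was 0.28 in place of 0.73 (SE 0.40, edgeR adjusted p = 0.520). Npas2, which can stand in for Clock and was chosen for description after its values were seen, had 14.1, 12.8 and 1.37 CPM against 8.65, 4.39, 4.16 and 1.63 CPM. Its 3 highest libraries were the same as those of Arntl, and its lowest were f/f-labelled library 3 and control 4, with 26 and 30 counts.

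Among the negative arm, the Per genes did not share one order. Per1 (chromosome 11, 69095108 to 69109965), whose transcription also responds to glucocorticoids, had 152, 144 and 83.9 CPM in f/f-labelled libraries 1 to 3 and 131, 126, 109 and 67.1 CPM in controls 1 to 4. Per2 (chromosome 1, 91415977 to 91459351) had 18.1, 19.6 and 48.7 CPM and 26.5, 28.0, 28.5 and 37.0 CPM in the same order. The 5 libraries with the highest Per1 were thus the 5 with the lowest Per2, and f/f-labelled library 3 and control 4 were at the low end for Per1 and at the high end for Per2. The ratio of Per2 to Per1 per length ran from 0.0958 in f/f-labelled library 1 to 0.467 in f/f-labelled library 3, with 0.163 to 0.210 in controls 1 to 3 and 0.444 in control 4.

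Per3 (chromosome 4, 150997018 to 151044707) followed Per2 at its upper end, with 40.7, 40.7 and 102 CPM in the f/f-labelled libraries and 33.5, 48.2, 49.9 and 57.9 CPM in the controls. F/f-labelled library 3 and control 4 were again the highest, but the lowest was control 1 and not, as for Per2, f/f-labelled library 1. Cry1 (chromosome 10, 85131700 to 85185054), the partner of the PER proteins in repression, had 19.9, 22.6 and 21.0 CPM and 23.4, 20.6, 20.4 and 26.2 CPM. It was the steadiest of the 10 genes, with a highest level 1.32-fold the lowest, and on the log2 scale only 7.01% of the genes tested had a range as small. Its genotype difference was -0.10 on the log2 scale with a 95% interval of -0.51 to 0.32. The log2 fold changes of Per1, Per2 and Per3 were 0.23, -0.06 and 0.37, with SEs of 0.28, 0.34 and 0.35 and adjusted p-values of 0.726, 0.947 and 0.649 from edgeR's test. The sign for Per2 turned with library-size scaling (0.04), for Per3 without f/f-labelled library 3 (-0.22), and for Cry1 without controls 1 and 4 (0.05).

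**Figure D2:**
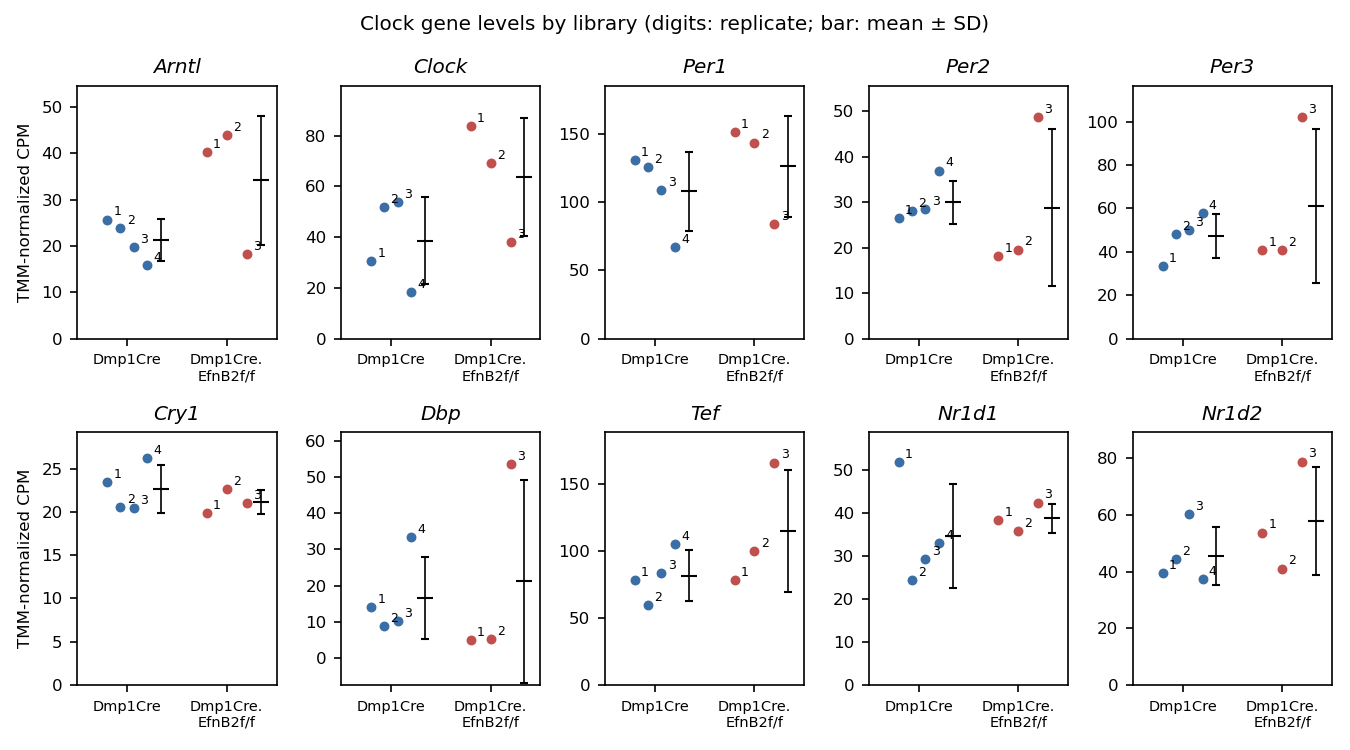
Level of each clock gene (TMM-normalized CPM) in the 4 Dmp1Cre and 3 Dmp1Cre.EfnB2f/f libraries; digits give the replicate and black bars the mean ± SD of each group. In Dbp, Per2, Per3 and Tef, f/f-labelled library 3 (53.6 CPM for Dbp) and control 4 (33.3 CPM) were the highest libraries, and in Arntl and Per1 they were the lowest.

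Dbp (Entrez 13170, chromosome 7, 45705100 to 45710203) encodes a PAR bZIP factor whose transcript has one of the widest daily swings known. Its counts were 87, 95 and 1017 in f/f-labelled libraries 1 to 3 and 273, 155, 173 and 613 in controls 1 to 4, or 4.84, 5.21 and 53.6 CPM and 14.1, 8.84, 10.1 and 33.3 CPM. The f/f-labelled group therefore held both the lowest and the highest libraries of the series, 11.1-fold apart. Over the 7 libraries the log2 range of Dbp was 3.44, against a median of 0.96 for all genes tested, and 0.722% of genes had a range at least as wide. The log2 fold change between genotypes was 0.35 (SE 0.85, 95% interval -1.83 to 2.53, edgeR adjusted p = 0.856). It was -1.72 without f/f-labelled library 3, the one library whose removal turned its sign, and 0.94 without control 4. DESeq2 gave no p-value for Dbp.

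Tef (chromosome 15, 81802673 to 81826863), a relative of Dbp that binds the same element, had 78.3, 100.2 and 166 CPM in the f/f-labelled libraries and 78.6, 59.5, 83.7 and 105 CPM in the controls. The highest libraries were the same as for Dbp, but f/f-labelled library 2 came next, at a level that Dbp did not show there. The log2 fold change was 0.49 (SE 0.28, edgeR adjusted p = 0.526), and 0.13 without f/f-labelled library 3. Tef and Nr1d1 were the 2 of the 10 genes whose fold change kept a positive sign under each of the 19 alternative settings fitted gene by gene.

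Nr1d1 (chromosome 11, 98767932 to 98775377), which encodes REV-ERB alpha, had 38.4, 35.8 and 42.5 CPM in the f/f-labelled libraries and 52.0, 24.4, 29.4 and 33.0 CPM in the controls. Control 1 was the highest and control 2, of the same parent cross, the lowest, 2.14-fold apart. Nr1d2 (chromosome 14, 18204056 to 18239106), for REV-ERB beta, had 53.8, 41.1 and 78.8 CPM and 39.6, 44.5, 60.2 and 37.4 CPM. F/f-labelled library 3 was the highest for Nr1d2, yet control 4 was the lowest, unlike in Dbp and Per2. The log2 fold changes were 0.17 (SE 0.26, edgeR adjusted p = 0.774) for Nr1d1 and 0.35 (SE 0.26, edgeR adjusted p = 0.575) for Nr1d2. That of Nr1d1 was 0.54 with controls 1 and 4 left out.

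Spans of some clock genes overlap those of other counted genes, and the sources used here do not state whether counting used strand. Nr1d1 overlaps Thra, which had 37.9 to 64.5 CPM, and Dbp overlaps Sphk2, which had 39.2 to 81.9 CPM. The level of Sphk2 differed 2.09-fold between its highest library, control 4, and its lowest, f/f-labelled library 1, compared with 11.1-fold for Dbp. Per3 overlaps Uts2 and Clock overlaps Gm7467, which had at most 0.422 and 0.234 CPM.

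Read together by library, 4 of the 10 genes (Per2, Per3, Dbp and Tef) had f/f-labelled library 3 and control 4 as their highest libraries and 2 (Arntl and Per1) had them as their lowest. The other 4, Clock, Cry1, Nr1d1 and Nr1d2, did neither. The share of all genes tested with these libraries at either end was not counted, so the counts do not set the clock genes apart. Some glucocorticoid-induced genes, given below, also had them as their lowest libraries. F/f-labelled libraries 1 and 2 had the highest Arntl, Clock, Npas2 and Per1 and the lowest Per2 and Dbp. F/f-labelled library 3 and control 4 also had the lowest Npas2. Controls 1, 2 and 3 lay between them for Arntl, Per1, Per2, Dbp and Npas2. The ratio of Dbp to Arntl per length put this in one value, with 0.209 and 0.206 in f/f-labelled libraries 1 and 2, 5.06 in f/f-labelled library 3, 0.954, 0.641 and 0.890 in controls 1 to 3, and 3.65 in control 4. For Dbp and Npas2 the same ratio was 0.853, 1.02 and 97.4 in the f/f-labelled libraries and 4.07, 5.01, 6.07 and 50.9 in the controls. The highest and the lowest of these ratios were both in f/f-labelled libraries.

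**Figure D3:**
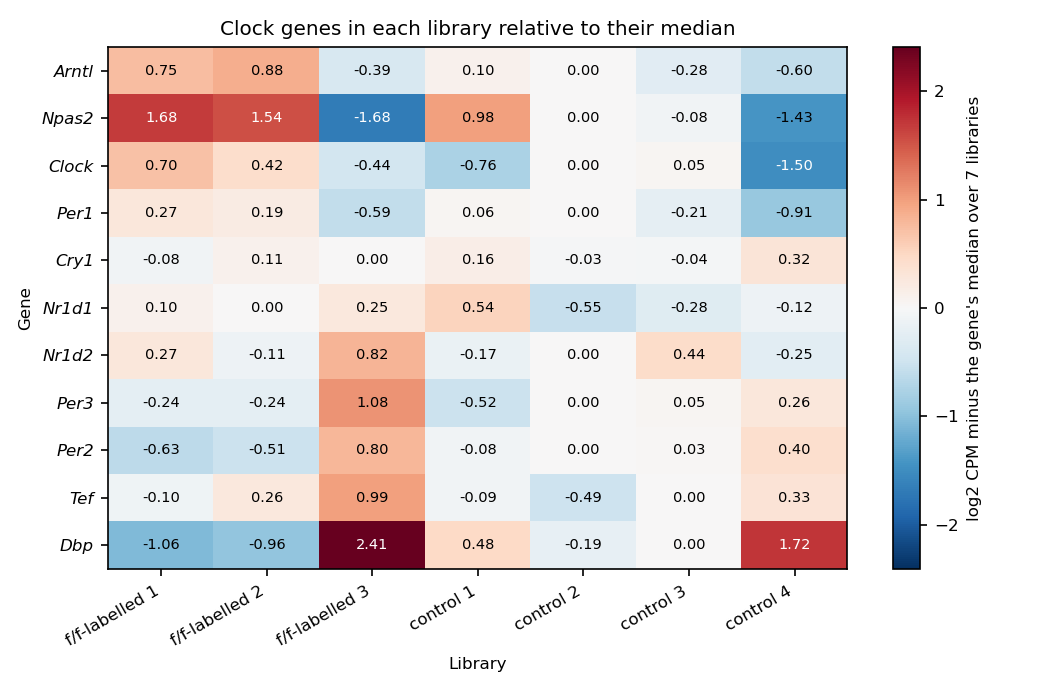
Heat map of log2 CPM minus the gene's median over the 7 libraries, for the clock genes and Npas2 (rows) in each library (columns); red is above and blue below the median. Dbp was 2.41 above its median in f/f-labelled library 3 and 1.72 above it in control 4, where Npas2 was at -1.68 and -1.43.

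**Figure D4:**
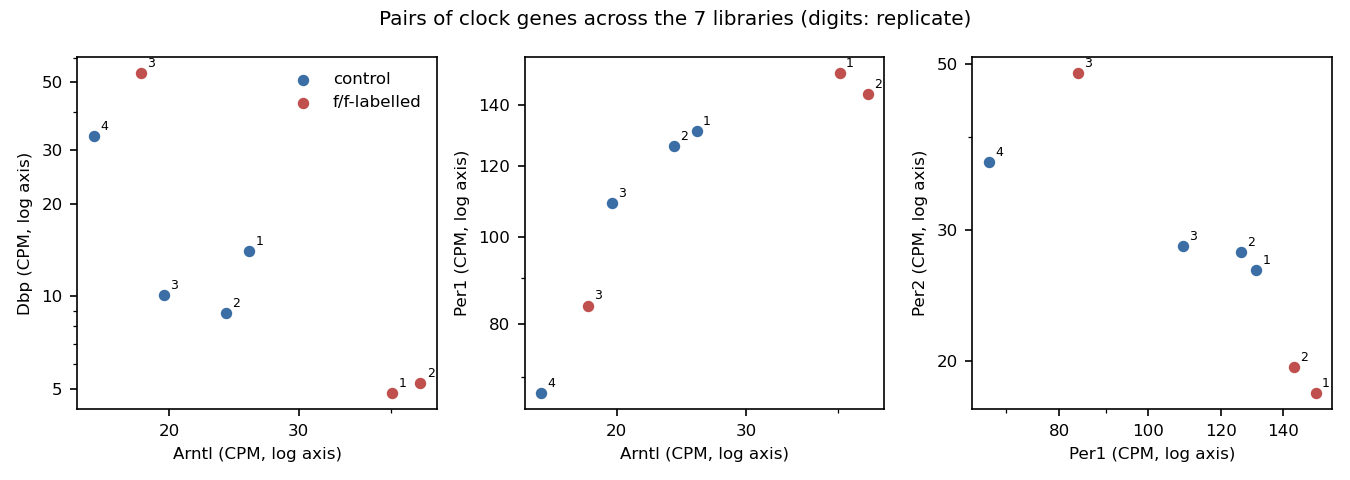
Levels of 3 pairs of clock genes across the 7 libraries (CPM, log axes; digits give the replicate, colours the label). Per1 had the library order of Arntl except for f/f-labelled libraries 1 and 2, while Dbp against Arntl and Per2 against Per1 ran in opposite directions from f/f-labelled libraries 1 and 2 to f/f-labelled library 3 and control 4.

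Parentage gave a further view of the same values. F/f-labelled libraries 1 and 2 were from a single parent cross and differed little in the clock genes, with ratios between them from 0.782 for Tef to 1.31 for Nr1d2, and 0.928 for Dbp. F/f-labelled library 3 and control 3 also shared a cross, and there Dbp was 5.29-fold, Per3 2.05-fold, Tef 1.98-fold and Per2 1.71-fold as high in the f/f-labelled library, Npas2 was 0.330-fold and Arntl 0.930-fold. Controls 1 and 2, of another cross, differed 2.14-fold in Nr1d1 and 1.60-fold in Dbp. These ratios are each between single libraries and carry no test. Marker sums of cell types are given for the libraries with the highest Dbp, and their part in these levels was not tested. The osteocyte and osteoblast markers summed to 13942 CPM in f/f-labelled library 3 and 19928 CPM in control 4, below 40751 CPM in control 1 and above the other 4 libraries (8234 to 9642 CPM). The muscle markers summed to 45048 CPM in f/f-labelled library 3 and to 17480 CPM in control 4, the lowest library for muscle. For erythroid markers the sums were 4552 and 11371 CPM, the latter the highest of the 7, and the lowest erythroid sum, 2930 CPM, was in f/f-labelled library 1.

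As a group, 0 of the 10 clock genes were higher and 0 lower in the f/f-labelled libraries at an adjusted p under 0.05 with edgeR, where 0% of the 15098 genes tested passed in either direction. At an unadjusted p under 0.05 there were also 0 of 10, against 9.66% of all genes, and in 0 of 10 did the groups separate without overlap, against 11.3% (5.05% higher and 6.30% lower). Log2 fold changes were above 0 in 8 of 10 genes, with a median of 0.35, compared with 51.3% and a median of 0.01 over all genes tested. DESeq2, which gave a p-value for all but Dbp, called 0 of the other 9 at an adjusted p under 0.05, where 0.477% of all genes passed, and 0 of 9 at an unadjusted p under 0.05, where 12.6% did. The study's limma pipeline, run without its block for the occasion of collection, called 2 of 10, Arntl (log2 fold change 0.82, adjusted p = 0.0324 from limma) and Nr1d1 (0.43, adjusted p = 0.0482), both higher, where 14.9% of all genes were called, 7.49% higher and 7.39% lower. At an unadjusted p under 0.05 it had 4 of 10 higher and 1 lower, where 32.9% of all genes were. That pipeline weights libraries by quality, and without the weights it called 0 of 10. With a block for the occasion, over the 12 assignments that the methods allow, it called between 0 and 6 of 10, and where it called 6, 32.6% of all genes were called (44.7% at an unadjusted p under 0.05). The paper's own fit had that block, and it reports genes in both directions at a false discovery rate under 0.05. The shares given here are therefore not the paper's.

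Without f/f-labelled library 3, the log2 fold changes were 0.98 for Arntl, 0.99 for Clock, -0.67 for Per2 and -1.72 for Dbp, with unadjusted p-values of 0.00332, 0.0420, 0.0157 and 0.0186 from edgeR's test, and 4 of 10 clock genes were at an unadjusted p under 0.05 where 9.03% of all genes were. Of the 10, 0 passed an adjusted p of 0.05 (lowest 0.534, edgeR), where 0.0132% of all genes passed, all of them lower. F/f-labelled library 3 is part of the division between libraries described above, so these p-values are no support for that division. Leaving out f/f-labelled library 1 gave 1 clock gene at an unadjusted p under 0.05 with edgeR and control 1 gave 2. Each other library left out alone gave 0. With f/f-labelled library 3 and control 4 both left out, a choice made after the values were seen, the log2 fold changes of Arntl and Dbp were 0.86 and -1.14. The parent cross as a block left the comparison to f/f-labelled library 3 and control 3, and gave -0.11 for Arntl and 2.40 for Dbp. Both signs were opposite to those without f/f-labelled library 3, but the Arntl value was small. These fits rest on different f/f-labelled libraries, so the contrast restates the levels given above.

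**Figure D5:**
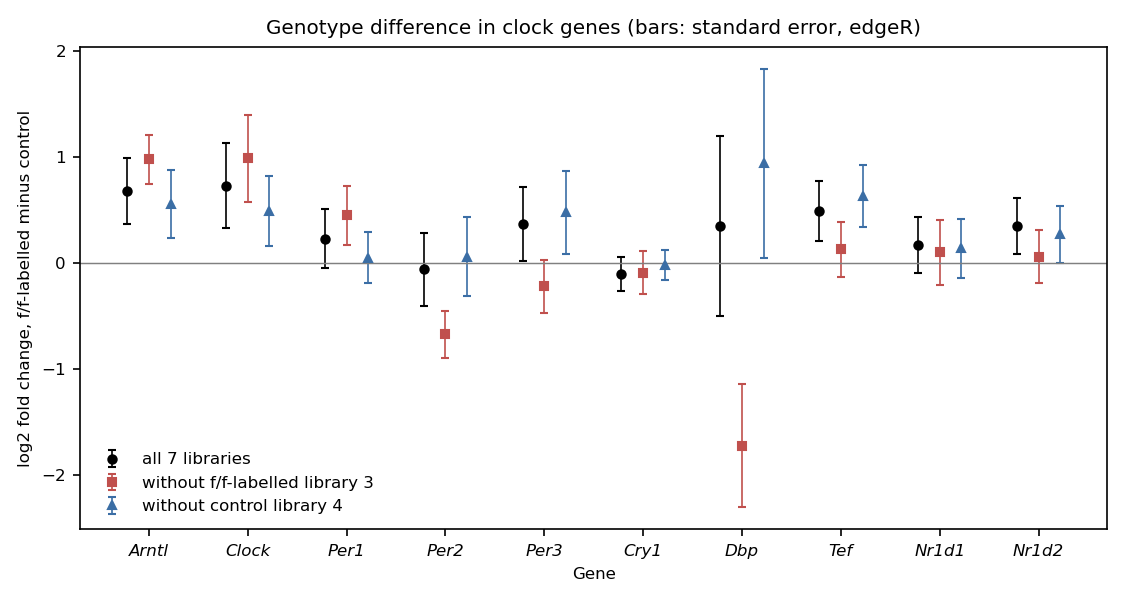
Log2 fold change, f/f-labelled minus control, of each clock gene with its standard error from edgeR, for all 7 libraries (black), without f/f-labelled library 3 (red) and without control 4 (blue). Dbp moved from 0.35 to -1.72 without f/f-labelled library 3 and to 0.94 without control 4.

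Of 24 further clock genes, covering other activators and repressors, the kinases and ubiquitin ligases that set PER and CRY stability, and output genes, 23 were tested and 0 passed an adjusted p of 0.05 with edgeR. The limma pipeline without the block for the occasion called 6 higher and 2 lower at an adjusted p under 0.05, against 7.49% and 7.39% of all genes. DESeq2 called 0, against 0.477% of all genes. With edgeR at an unadjusted p under 0.05, 3 were higher and 0 lower, against 4.63% and 5.03% of all genes, and the median log2 fold change was 0.24. Rora and Arntl2 were among the 3. Of the 23, 2 separated the groups as higher (Rora and Arntl2) and 1 as lower (Csnk1d), against 5.05% and 6.30% of all genes. Rora, which encodes the ROR receptor that competes with REV-ERB on the Arntl promoter, had 18.0, 18.5 and 14.7 CPM in the f/f-labelled libraries and 13.5, 9.30, 12.1 and 6.52 CPM in the controls. The groups did not overlap, and the log2 difference was 0.72 (SE 0.26, edgeR adjusted p = 0.511). Arntl2, a low-level relative of Arntl, also separated the groups, with 34, 38 and 21 counts against 21, 17, 16 and 8 and a log2 difference of 0.98 (SE 0.38, edgeR adjusted p = 0.511). Its lowest f/f-labelled level, 1.11 CPM, and highest control level, 1.09 CPM, were close to each other. Csnk1d, a kinase that marks PER proteins for degradation, was at 131 CPM in each f/f-labelled library and at 157, 132, 133 and 182 CPM in the controls, and the log2 difference was -0.21 (SE 0.17, edgeR adjusted p = 0.609). Klf9, also on this list, is among the top genes that the paper reports as higher, from its fit with the block for the occasion. Here its groups overlapped, with a log2 difference of 0.66 (SE 0.38, edgeR adjusted p = 0.525).

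Other clock genes were picked for description after their values were seen, so their likeness to Dbp or Arntl is no support for the division between libraries. Hlf, the third PAR bZIP gene, had 5.95, 6.31 and 16.6 CPM in the f/f-labelled libraries and 5.39, 6.79, 7.85 and 9.29 CPM in the controls, with f/f-labelled library 3 and control 4 the highest as in Dbp. Bhlhe41, an E-box repressor, had 2.50, 3.13 and 10.4 CPM and 3.94, 2.79, 4.33 and 5.05 CPM, again with these libraries on top. Nfil3, which represses through the D-box, had 31.1, 30.8 and 16.7 CPM and 28.3, 20.5, 21.1 and 21.1 CPM, so f/f-labelled libraries 1 and 2 were the highest and f/f-labelled library 3 the lowest, with control 4 at place 4 of 7. Genes of the same list that did not follow the division include Ciart, a repressor of the activating pair, with 2.56, 1.37 and 6.38 CPM and 1.97, 2.51, 3.28 and 2.34 CPM, and Usp2 and Nampt, which were lowest in control 4 and highest in control 3. Cry2, the relative of Cry1, stayed between 25.5 and 40.4 CPM.

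Signals that can act on Per1 were read from lists of their own. The genes named from them were picked for description after their values were seen. Of 7 glucocorticoid-induced genes, Per1 included, 0 passed an adjusted p of 0.05 with edgeR or DESeq2, against 0% and 0.477% of all genes. At an unadjusted p under 0.05 both tools also had 0, against 9.66% and 12.6% of all genes. The limma pipeline called 1 higher, where it called 7.49% of all genes higher. The median log2 fold change was 0.18 with edgeR. Tsc22d3, a direct glucocorticoid target, had 265 ± 72.4 CPM (SD, n = 3) in the f/f-labelled libraries and 265 ± 94.9 CPM (SD, n = 4) in the controls. By library, f/f-labelled library 3 and control 4 were its lowest, at 193 and 144 CPM. They were also the lowest for Fkbp5 (57.6 and 69.9 CPM), Zbtb16 (43.9 and 26.4 CPM) and Cdkn1a (9.07 and 10.7 CPM), as for Arntl and Per1. In Sgk1 and Dusp1 they were not both the lowest. A link between these levels and the division between libraries was not tested. Of 8 immediate early genes, which respond to acute stimuli, 0 passed an adjusted p of 0.05 and 2 were higher at an unadjusted p under 0.05 (4.63% of all genes were), Egr1 and Egr2, with log2 fold changes of 0.87 and 0.78 (adjusted p = 0.511 for each from edgeR's test). At an adjusted p under 0.05, DESeq2 called 0 of the 8, against 0.477% of all genes. The limma pipeline called 2 of the 8, both higher, where it called 7.49% of all genes higher.

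Likeness to Dbp and to Arntl was measured by Pearson's r of log2 CPM over the 7 libraries, as a description, since with so few libraries many genes reach a high r and a few libraries can set it. Of 15097 other genes, 25 had r of at least 0.9 with Dbp. The 5 most alike were Ccdc134 (0.979), Lrtm2 (0.963), Per2 (0.963), Slc25a29 (0.951) and Ppil3 (0.936). Without f/f-labelled library 3 and control 4, the libraries farthest from the median of Dbp, r over the other 5 was 0.882, 0.847, 0.876, 0.919 and 0.704 in the same order. Per2 thus stood at place 3 of 15097. From the opposite end, Npas2 was at place 37 with an r of -0.91, Per1 at place 70 (-0.89) and Arntl at place 179 (-0.84). Per3 (0.78) and Tef (0.70) were alike to Dbp over all 7 libraries but not over the remaining 5 (-0.16 and -0.34), so their likeness rested on f/f-labelled library 3 and control 4.

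For Arntl, 97 genes had r of at least 0.9, and the 5 most alike were Baiap2l1 (0.987), Traf3ip2 (0.985), Pde9a (0.973), Zfyve28 (0.969) and Nedd9 (0.968), none of them in the clock lists. A high r did not need a wide range, as Nedd9 ran from 121 to 158 CPM. Npas2 stood at place 52 (r of 0.92) and Per1 at place 150 (0.88), and over the 5 libraries left without f/f-labelled libraries 1 and 2 their r was 0.89 and 0.96. Nr1d1 had an r of 0.16 with Arntl and 0.24 with Dbp, and Cry1 of -0.33 and 0.41.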

How the data were processed

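RNA was taken from flushed femora on 2 occasions, and the sources used here do not say which library came from which. The paper gives 2 f/f-labelled and 3 control samples for the first occasion and 1 of each for the second. F/f-labelled library 3 and control 4 are also 1 of each, and whether they were the second occasion is not stated and was not tested. The authors mapped paired-end reads to mm10 with Rsubread, counted them per Entrez gene with featureCounts on Rsubread's inbuilt annotation, and deposited raw counts without normalization. Bcl2fastq 2.17.1.14 is named in the submitters' processing notes. From the counts, 16302 genes reached 0.65 CPM in 3 or more libraries, and dropping 1204 of classes that the study removed (such as immunoglobulin segments, pseudogenes and predicted genes) left 15098. The main test was the robust quasi-likelihood fit of edgeR 4.0.16 after TMM scaling (R 4.3.3), on all 7 libraries without covariates, adjusted by Benjamini-Hochberg. The standard error is the log2 fold change over the square root of F, and intervals use 5 residual degrees of freedom. DESeq2 1.42.0 and limma 3.58.1 (quantile-normalized log2 CPM, prior count 2, with sample weights and a robust trend) were alternatives. The fits were tested on simulated data. Length-corrected levels used the deposited gene lengths. Positions, spans and promoter sequences are from RefSeq on GRCm38.p6, the build of mm10. The clock genes and all lists were chosen with earlier results of these data known. Named beyond the members were list genes whose groups did not overlap or that passed, and the 5 genes most like Dbp and Arntl. Also named were Klf9, because the paper reports it, and others marked as chosen after their values were seen. The sources used here do not state that each library was 1 mouse, so p-values measure the spread between these libraries, which may in part be technical. The values of 1 further clock gene are not reported here.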

Additional observations from a re-analysis of the deposited data

How the results depend on the processing

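The number of clock genes called was 0 with all edgeR settings and with DESeq2, which gave no p-value for Dbp. The limma pipeline called 2 without a block for the occasion of collection, and with such a block between 0 and 6 over the 12 possible assignments, with 0 in 7 of them. The 6 came with f/f-labelled library 3 and control 4 taken as the separate occasion, and the sources used here do not say whether they were. Leaving out each library in turn gave log2 fold changes from 0.46 to 0.98 for Arntl, 0.48 to 0.99 for Clock, 0.05 to 0.45 for Per1, -0.67 to 0.19 for Per2, -0.22 to 0.61 for Per3, -0.14 to -0.02 for Cry1, -1.72 to 0.94 for Dbp, 0.13 to 0.70 for Tef, 0.03 to 0.43 for Nr1d1 and 0.06 to 0.55 for Nr1d2. The parent cross as a block turned Arntl (-0.11), Clock (-0.49), Per1 (-0.38), Per2 (0.77) and Cry1 (0.04), an estimate that rests on f/f-labelled library 3 and control 3. The limma pipeline turned Per3 (-0.16), Cry1 (0.03), Dbp (-0.79) and Nr1d2 (-0.10), and without weights Dbp (-0.47). Library-size scaling turned Per2 (0.04), and leaving out controls 1 and 4 turned Per2 (0.03) and Cry1 (0.05). Without control 4 and f/f-labelled library 3, chosen after seeing the data, Per3 was -0.11, Dbp -1.14 and Nr1d2 -0.02. The cause of these turns was not tested. Libraries with the same replicate number in their titles gave correlations of deviations of -0.145, 0.0631 and -0.419. Of these pairs, f/f-labelled library 3 and control 3 also shared a parent cross. Pairs with unlike numbers ran from -0.483 (f/f-labelled library 1 with control 4) to 0.48 (f/f-labelled library 3 with control 4). So few values cannot show whether the numbers mark pairs. As a replicate block, which leaves out control 4, the numbers gave 0 clock genes called, and the log2 fold change of Dbp was -0.03. Over the 20 group means of clock gene levels, scaling by library size moved 0 by more than the SD of the group.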
